A study of Mus musculus with 6 samples.

Results

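The genes described here are 32 genes of the Fanconi anaemia pathway, of DNA double-strand break repair and of the damage checkpoint, followed in mouse bone marrow LSK cells, the lineage-negative fraction that is positive for cKit and Sca1 and contains stem cells and early progenitors of the blood. They are a list of names grouped by known function, drawn up when earlier results of these data were known. All 32 were found among the 24063 gene symbols of the count table, and all 32 passed the filter on low counts that left 13679 symbols for testing. The series compared Arid2fl/fl:MxCre+ mice, labelled knockout, with MxCre+ mice, labelled control, with 3 RNA-seq libraries in each group. Arid2 encodes a DNA-binding subunit that defines PBAF, a chromatin remodeller of the SWI/SNF family. Mice of both groups were on a C57/BL6 background, carried the MxCre transgene, received pIpC at 6 to 8 weeks of age and gave cells 6 weeks later. The Mx1 promoter that drives Cre answers to interferon, which pIpC induces, so Cre acts in many interferon-responsive cells and not in LSK cells alone. The labels do not tie libraries to animals or litters, so p-values measure the spread between libraries.

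Interstrand crosslinks, which tie both DNA strands together, are recognised by FANCM and unhooked after the Fanconi core complex attaches ubiquitin to the FANCI and FANCD2 pair. Breaks that arise are repaired from the sister chromatid by homologous recombination, in which BRCA1, PALB2 and BRCA2 ready the resected end for strand invasion, or are rejoined directly by the Ku proteins, DNA-PKcs, XRCC4 and ligase IV. ATM and ATR signal the damage to the checkpoint kinases CHEK2 and CHEK1. Loss of Fanconi genes causes bone marrow failure in humans, and haematopoietic stem cells depend on these pathways to survive crosslinks made by endogenous aldehydes.

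Library totals ran from 12408966 to 28185678 counted reads. Arid2 had 162, 150.2 and 155 CPM (read counts scaled to library size) in knockout libraries 1 to 3, against 165, 154 and 148 CPM in control libraries 1 to 3. Its log2 fold change was 0.00, which does not show whether floxed exons were lost, so the groups are called by their labels. Xist, the RNA of the inactive X chromosome, had 1969 to 2016 CPM in the knockout libraries and 1916 CPM in control library 2, against 6.15 and 11.9 CPM in control libraries 1 and 3, where Y-linked genes were read instead. The sexes were therefore unequal between the groups. Of the genes behind the sort gate, Kit ranged from 426 to 446 CPM in knockout and 493 to 655 CPM in control libraries. Ly6a, which encodes Sca1, had 12.4 to 15.3 CPM in knockout and 18.2 to 22.3 CPM in control libraries (log2 fold change −0.56, SE 0.13, edgeR adjusted p = 0.0378). Ly6a kept an adjusted p under 0.05 in 7 of 15 other fits.

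Markers of other cells also differed between the knockout and control libraries, whose sexes were unequal. Over all tested genes 8.42% were called in this fit, which holds no term for sex. Of 13 mature neutrophil genes tested 12 had positive log2 fold changes and 6 were called higher, and the list summed to 7582 to 9708 CPM in knockout and 3119 to 6021 CPM in control libraries. All 14 monocyte and macrophage genes tested were positive and 9 were called higher, with sums of 3026 to 3427 CPM in knockout and 1645 to 2116 CPM in control libraries. Erythroblast genes (9 of 11 positive, 5 called higher) summed to 479 to 950.2 CPM in knockout and 429 to 745 CPM in control libraries, and mast cell and basophil genes (1 of 6 positive, 3 called lower) to 299 to 404 CPM in knockout and 483 to 747 CPM in control libraries. Sums for B cell genes (9 of 10 positive, 1 called lower) were 29.3 to 36.3 CPM in knockout and 37.5 to 44.1 CPM in control libraries. T and NK cell genes (6 of 12 positive, 1 called lower) summed to 274 to 344 CPM in knockout and 245 to 321 CPM in control libraries, and stroma and endothelium genes (1 of 6 positive, 2 called lower) to 116 to 150.2 CPM in knockout and 168 to 201 CPM in control libraries. Genes of the sort gate and of stem cells (1 of 12 positive, 4 called lower) summed to 2137 to 2390 CPM in knockout and 2675 to 2955 CPM in control libraries. No marker of these lists that the table holds was at 0 in all 6 libraries. With a term for sex, list medians (log2) were 0.779 for neutrophil, 0.593 for monocyte and macrophage and 2.046 for erythroblast genes. Without it they were 0.832, 0.768 and 0.959. Mast cell and basophil genes went from −0.858 to −1.003 and B cell genes from 0.638 to 0.444. T and NK cell, stroma and sort gate lists went from −0.131, −0.828 and −0.394 to −0.031, −0.584 and −0.289. With that term only the B cell list held a call. The part of sex and of these markers in the results below was not tested.

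The repair genes differed little between the genotypes. Of the 32 genes, 1 was lower (Trp53bp1) and 0 were higher in knockout libraries (edgeR quasi-likelihood test, Benjamini-Hochberg adjusted p under 0.05 over all genes tested), or 3.12%. Over all tested genes 8.42% passed, 4.58% lower and 3.85% higher. At an unadjusted p under 0.05, 1 repair gene was higher (Fanca) and 3 were lower (Trp53bp1, Atr and Xrcc6), 4 of 32 against 24.9% of all tested genes. DESeq2 and limma-voom also called 1 lower and 0 higher. The median log2 fold change of the 32 genes was 0.02, against 0.00 over all tested genes, with 17 genes positive and 15 negative. Fold changes ran from −0.24 (Atr) to 0.29 (Xrcc4) on the log2 scale. In this fit all 32 lay within 0.3 of zero, as did 71.7% of all tested genes. With a term for sex in the fit, Fancg (0.318), Xrcc4 (0.315) and Atr (−0.306) lay past that bound. Over 15 other fits Lig4 reached 0.481 and Fance −0.317. Between the groups 6 of the 32 genes (18.8%) did not overlap in CPM, against 31.2% of all tested genes.

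The intervals limit how large a difference the fit on genotype alone leaves room for. For 30 of the 32 genes the 95% interval of the fold change lay within 1.5-fold in either direction, and for all 32 within 2-fold. The exceptions to the narrower bound were Xrcc4 and Lig4, the least abundant by CPM along with Fancb. These intervals do not cover the unequal sexes of the groups, as that fit holds no term for sex. Summed over the 32 genes, the level was 1617, 1537 and 1592 CPM in knockout libraries 1 to 3, against 1603, 1602 and 1590.4 CPM in control libraries 1 to 3. The sums of the groups overlapped. As the RNA is from bulk samples, fewer cells that express a gene and less RNA per cell cannot be told apart.

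**Figure D1:**
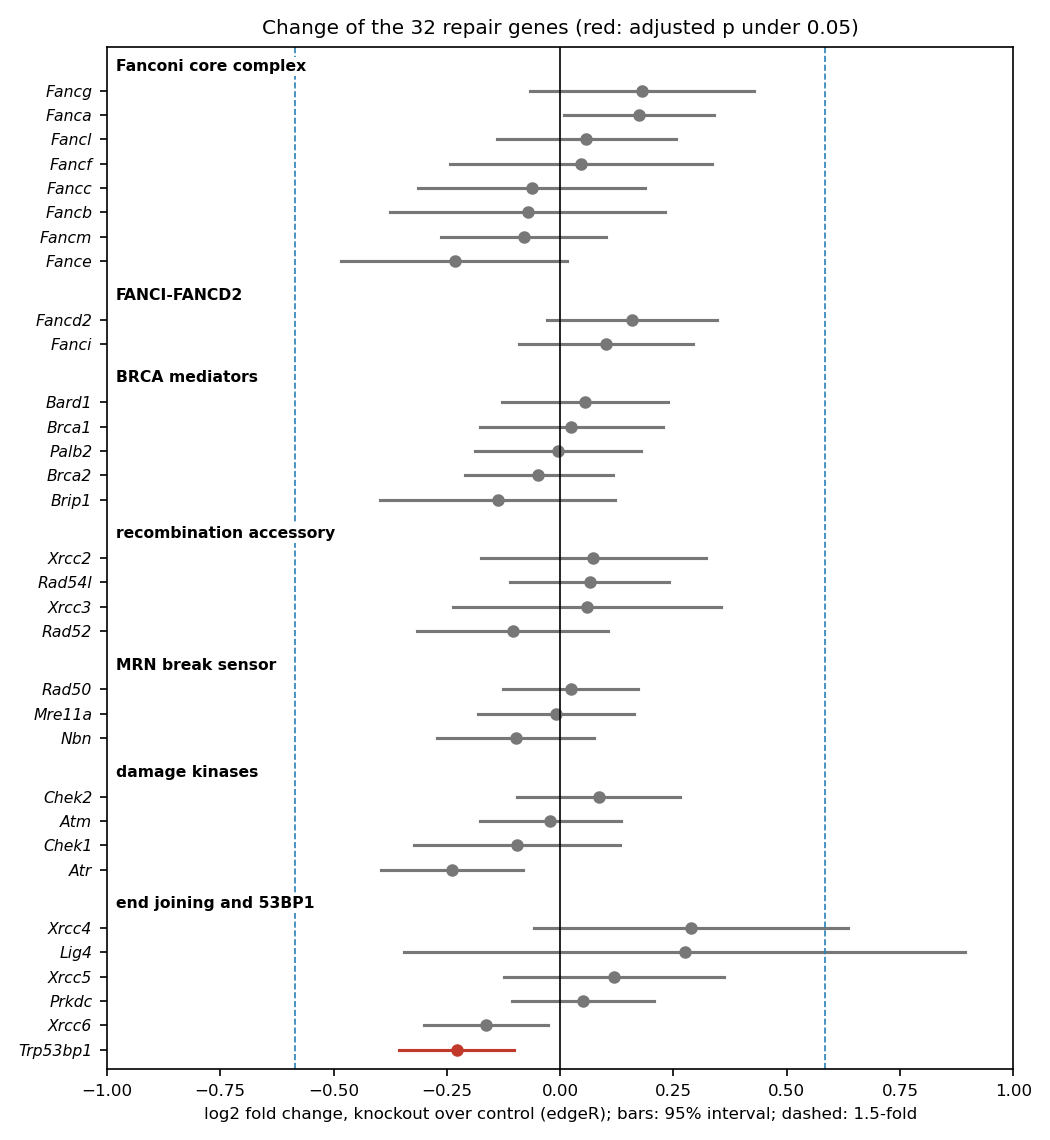
Log2 fold change of each of the 32 repair genes, knockout over control, with its 95% interval from the edgeR fit (x axis) and the genes by role (y axis). Dashed lines mark 1.5-fold, and Trp53bp1 (−0.23), drawn in red, has an adjusted p under 0.05, while the intervals of Xrcc4 and Lig4 alone reach past 1.5-fold.

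Levels were compared between genes as CPM per kilobase of annotated exon, averaged over the 6 libraries. Rad50, an ATPase of the complex that senses broken ends, had the highest level (24.4 CPM per kb, 23.0 to 26.03 over the 6 libraries), followed by Xrcc6, which encodes Ku70 (23.3, 21.1 to 25.5), and the ranges of these neighbours overlapped. Nbn (15.2), Xrcc5 (14.2) and Chek2 (13.6) came next, each overlapping in range with its neighbour in this order. The lowest levels were those of Xrcc4 (2.58 CPM per kb, 2.20 to 3.32), Fancc (2.10, 1.87 to 2.22) and Lig4 (1.16, 0.626 to 1.43). Lig4 did not overlap with Fancc, which overlapped with Xrcc4. The Ku subunits were unequal in RNA, with Xrcc5 at 12.5 to 16.5 CPM per kb and Xrcc6 at 21.1 to 25.5 CPM per kb. Exon length is that of all annotated isoforms together (23629 bases for Atr), so genes with long minor isoforms are placed too low.

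**Figure D2:**
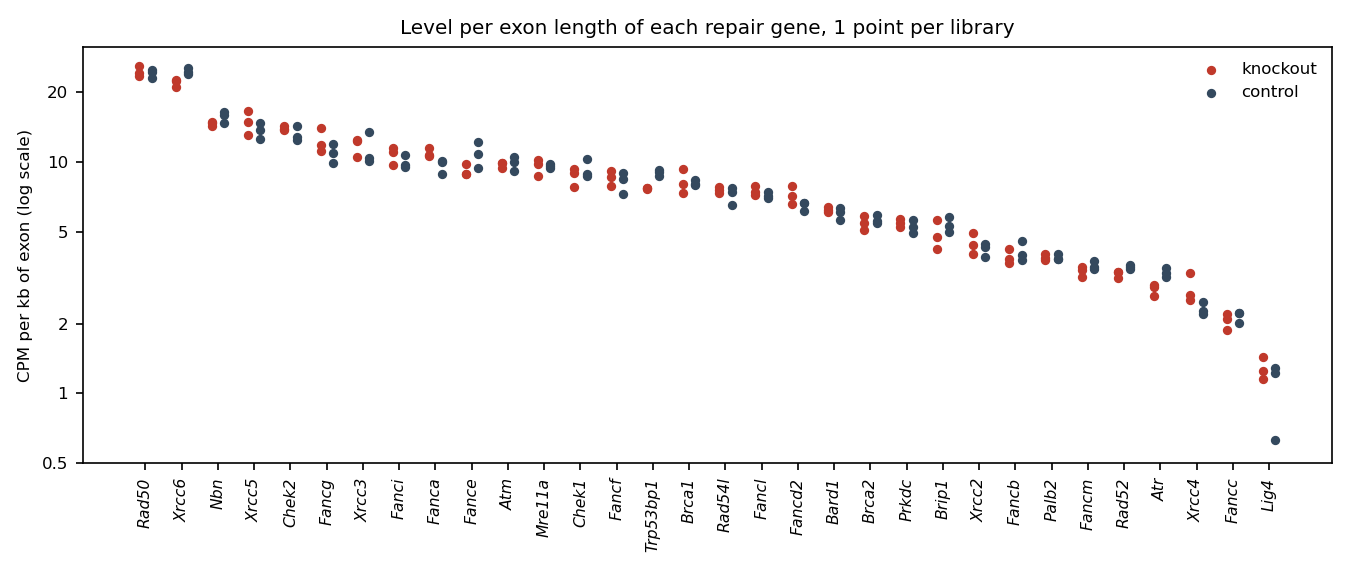
Level of each of the 32 repair genes as CPM per kilobase of exon on a log scale (y axis), genes in falling order of the mean (x axis), with 1 point per knockout (red) or control (dark) library. Levels run from 24.4 for Rad50 to 1.16 for Lig4, and the single low point of Lig4 is control library 1.

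Promoters were examined because many repair genes are made mainly in S phase, and E2F factors drive many S phase genes. RefSeq promoter windows of GRCm38.p6, which run from 250 bases before to 50 bases after the start, were at hand for 27 of the 32 genes. Their median GC content was 59.7%, against 60.3% for tested genes with a window. An E2F motif, spelled as TTTGGCGC or TTTCCCGC on either strand, was found in 5 of 27 windows (18.5%), against 3.38% of 10122 tested genes and 1.80% of all 27025 genes with a window. CCAAT, which may lie in any orientation and is not part of the E2F spelling, was in 16 of 27 (59.3%), against 42.6% of tested genes and 41.1% of all genes. TTTGAA, the core of the cell cycle homology region of mitotic genes, was in 1 of 27 (3.70%), against 14.4% of tested genes and 20.2% of all genes. The NRF1 motif was in 3 of 27 (11.1%), against 11.1% of tested genes and 5.19% of all genes. A match is a run of letters and not a shown binding site. The 5 windows with an E2F match are printed as 60 bases each, in the gene's own orientation, with the match in capitals. They were picked by that match, so the shared core follows from the search. Their positions are chr1:71103148-71103207 on the minus strand for Bard1, chr4:43010320-43010379 on the minus strand for Fancg, chr5:110839805-110839864 on the plus strand for Chek2, chr5:150522427-150522486 on the plus strand for Brca2 and chr15:82016297-82016356 on the plus strand for Xrcc6.
Bard1: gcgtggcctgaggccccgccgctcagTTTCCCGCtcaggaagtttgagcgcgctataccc
Fancg: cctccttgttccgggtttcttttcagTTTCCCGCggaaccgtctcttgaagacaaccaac
Chek2: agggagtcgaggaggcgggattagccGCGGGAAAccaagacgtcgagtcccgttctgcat
Brca2: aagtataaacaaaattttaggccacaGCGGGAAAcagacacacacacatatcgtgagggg
Xrcc6: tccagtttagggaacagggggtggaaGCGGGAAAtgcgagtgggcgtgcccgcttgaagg
The match was TTTCCCGC in Bard1 and Fancg and its reverse complement GCGGGAAA in Chek2, Brca2 and Xrcc6. These 5 genes had log2 fold changes of 0.06 (Bard1), 0.18 (Fancg), 0.08 (Chek2), −0.05 (Brca2) and −0.16 (Xrcc6), and none passed the test. Trp53bp1, the gene that did, held none of the 4 motifs in its window.

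The Fanconi core complex is the ubiquitin ligase of the pathway. Of its 8 genes 0 were higher and 0 lower in knockout libraries, with 4 positive and 4 negative fold changes and a median log2 fold change of −0.01. As 8.42% of all tested genes were called, the absence of a call in a group this small says little about the role. The same holds for the smaller groups below. Fanca, which encodes a scaffold subunit, had 93.0, 93.4 and 100.9 CPM in knockout libraries 1 to 3, against 87.9, 88.7 and 77.8 CPM in control libraries 1 to 3. Every knockout library was above every control library, but the log2 fold change of 0.17 (SE 0.07, edgeR unadjusted p = 0.0416) did not pass after adjustment (adjusted p = 0.179). Fance, whose product links the complex to FANCD2, had 28.2, 28.4 and 31.3 CPM in knockout libraries, against 38.8, 30.1 and 34.5 CPM in control libraries. Its groups overlapped (log2 fold change −0.23, SE 0.11, adjusted p = 0.231), and in a fit with a term for sex the fold change was −0.04. Fancg, another subunit needed for assembly, had 53.2, 45.1 and 42.3 CPM in knockout libraries, against 45.5, 37.6 and 41.3 CPM in control libraries, also overlapping (0.18, SE 0.11, adjusted p = 0.350).

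The other core complex genes were flatter. Fancl, the catalytic ligase subunit, averaged 25.2 ± 1.21 CPM in knockout and 24.2 ± 0.670 CPM in control libraries (SD, n = 3 each), a log2 fold change of 0.06. Fancf, an adaptor, had 14.4 ± 1.02 CPM in knockout and 13.9 ± 1.45 CPM in control libraries (0.05). Fancc, a linker subunit, had a log2 fold change of −0.06 (SE 0.11, adjusted p = 0.769). Fancm, the DNA translocase that anchors the complex, had 35.2 ± 1.67 CPM in knockout and 37.1 ± 1.63 CPM in control libraries (−0.08). Fancb, which stabilises the catalytic subunit, is the sole gene of the 32 on the X chromosome. It had 10.9, 11.4 and 12.5 CPM in knockout libraries, against 13.5, 11.2 and 11.8 CPM in control libraries, of which the second is the Xist-positive one. Its log2 fold change was −0.07 (SE 0.13), and 0.05 with the sex term.

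Fancd2 and Fanci encode the clamp that the core complex modifies, and neither passed the test. Fancd2 had 62.7, 52.4 and 56.6 CPM in knockout libraries, against 52.7, 48.7 and 52.6 CPM in control libraries. The lowest knockout value lay below the highest control value (log2 fold change 0.16, SE 0.08, adjusted p = 0.280). Fanci had 66.0, 56.1 and 63.6 CPM in knockout libraries, against 62.1, 56.1 and 54.7 CPM in control libraries, with overlap as well (0.10, SE 0.08, adjusted p = 0.503).

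The genes that ready resected DNA for strand invasion showed no call in either direction among 5. Brca2, which carries out the last step of this preparation, had 79.7, 69.0 and 74.1 CPM in knockout libraries, against 74.4, 75.8 and 80.2 CPM in control libraries. These ranges overlapped (log2 fold change −0.05, SE 0.07, adjusted p = 0.728), and the 95% interval put the knockout level between 86.4% and 108% of control. Brca1, a ubiquitin ligase that directs breaks to recombination, averaged 70.2 ± 8.43 CPM in knockout and 69.0 ± 1.80 CPM in control libraries (SD, n = 3 each; 0.02, interval 88.4% to 117% of control). Its partner Bard1 averaged 35.2 CPM in knockout and 33.9 CPM in control libraries (0.06, SE 0.08). Palb2, the bridge from BRCA1 to BRCA2, was the flattest of the 32 genes, at 28.3 ± 0.802 CPM in knockout and 28.5 ± 0.910 CPM in control libraries (0.00), and its highest library was 1.07 times its lowest. Brip1, a helicase bound by BRCA1, had 36.1 ± 5.15 CPM in knockout and 39.8 ± 2.92 CPM in control libraries (−0.14, adjusted p = 0.501).

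Of 4 genes that assist strand exchange, 0 were called higher or lower. Rad54l, a DNA translocase of homologous recombination, had 60.0, 56.5 and 58.3 CPM in knockout libraries, against 59.1, 57.3 and 50.4 CPM in control libraries (log2 fold change 0.07, SE 0.08, adjusted p = 0.652). Control library 3 alone lay below the knockout libraries. Xrcc2 and Xrcc3, which also act in homologous recombination, had log2 fold changes of 0.07 and 0.06. Rad52, which anneals single strands, did not overlap between the groups, with 18.9 ± 0.644 CPM in knockout and 20.2 ± 0.395 CPM in control libraries, yet its fold change was small (−0.11, adjusted p = 0.529).

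The MRE11, RAD50 and NBN proteins form the complex that first binds a broken end and recruits ATM. Rad50 had 130.1, 139.9 and 126 CPM in knockout libraries, against 132, 135 and 124 CPM in control libraries. The groups overlapped (log2 fold change 0.02, SE 0.07, adjusted p = 0.866), and the 95% interval ran from 91.6% to 113% of control. Mre11a, the nuclease, averaged 56.6 ± 4.60 CPM in knockout and 56.9 ± 1.10 CPM in control libraries (−0.01). Nbn had 37.2 ± 0.723 CPM in knockout and 39.8 ± 2.12 CPM in control libraries (−0.10, adjusted p = 0.470).

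Among the damage kinases Atr stood lowest, without passing the test. Atr, the kinase that answers to single-stranded DNA at stalled forks, lies on chromosome 9 at 95857597 to 95951781 on the plus strand. It had 68.3, 62.5 and 69.6 CPM in knockout libraries, against 75.2, 82.5 and 78.3 CPM in control libraries. The groups did not overlap. The knockout level was 84.7% of control (log2 fold change −0.24, SE 0.07, adjusted p = 0.0691), and over 15 other fits the adjusted p ran from 0.0451, with upper-quartile scaling, to 0.278, with the sex term. Atrip, the partner that holds ATR at such DNA, was the gene with the smallest p in a list of 25 other damage signalling genes, at 26.8 ± 1.18 CPM in knockout and 32.4 ± 1.79 CPM in control libraries (−0.27, SE 0.09, adjusted p = 0.0887). Its exons overlap those of Trex1 on the same strand, so the split of reads between them is uncertain. Atm, the kinase for double-strand breaks, had 102, 97.5 and 101.9 CPM in knockout libraries, against 94.3, 109 and 103 CPM in control libraries, with overlap (−0.02, SE 0.07, adjusted p = 0.882). Chek1 (−0.10) and Chek2 (0.08), the kinases below ATR and ATM, did not pass either.

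The end joining group held the sole call, in 1 of 6 genes. That group is too small to set its share against the 8.42% of all tested genes. Trp53bp1 encodes 53BP1, which shields broken ends from resection and so steers them to end joining. The gene (ENSMUSG00000043909) lies on chromosome 2 at 121193281 to 121271407 of GRCm38, on the minus strand. It had 108, 109 and 109 CPM in knockout libraries, against 123, 131 and 128 CPM in control libraries. The knockout libraries lay within about a CPM of each other and below every control library. The gene fell to 85.4% of the control level (95% interval 78.1% to 93.3%; log2 fold change −0.23, SE 0.06, adjusted p = 0.0421). The fold change stayed between −0.27 and −0.20 over 15 other fits, but the adjusted p ran from 0.0299 to 0.245 and was under 0.05 in 6 of them. It was 0.122, 0.134 and 0.0996 without knockout library 1, 2 or 3, and 0.0797, 0.111 and 0.0763 without control library 1, 2 or 3. With no filter on low counts it was 0.0524, with the sex term 0.245 and among the 4 Xist-positive libraries 0.219. With the sex term 0 of the 32 genes and 0.314% of all tested genes were called. Its exons overlap 2130 bases of Tubgcp4 on the other strand, a gene with 66.2 ± 3.41 CPM in knockout and 65.8 ± 2.61 CPM in control libraries (0.01, adjusted p = 0.961).

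**Figure D3:**
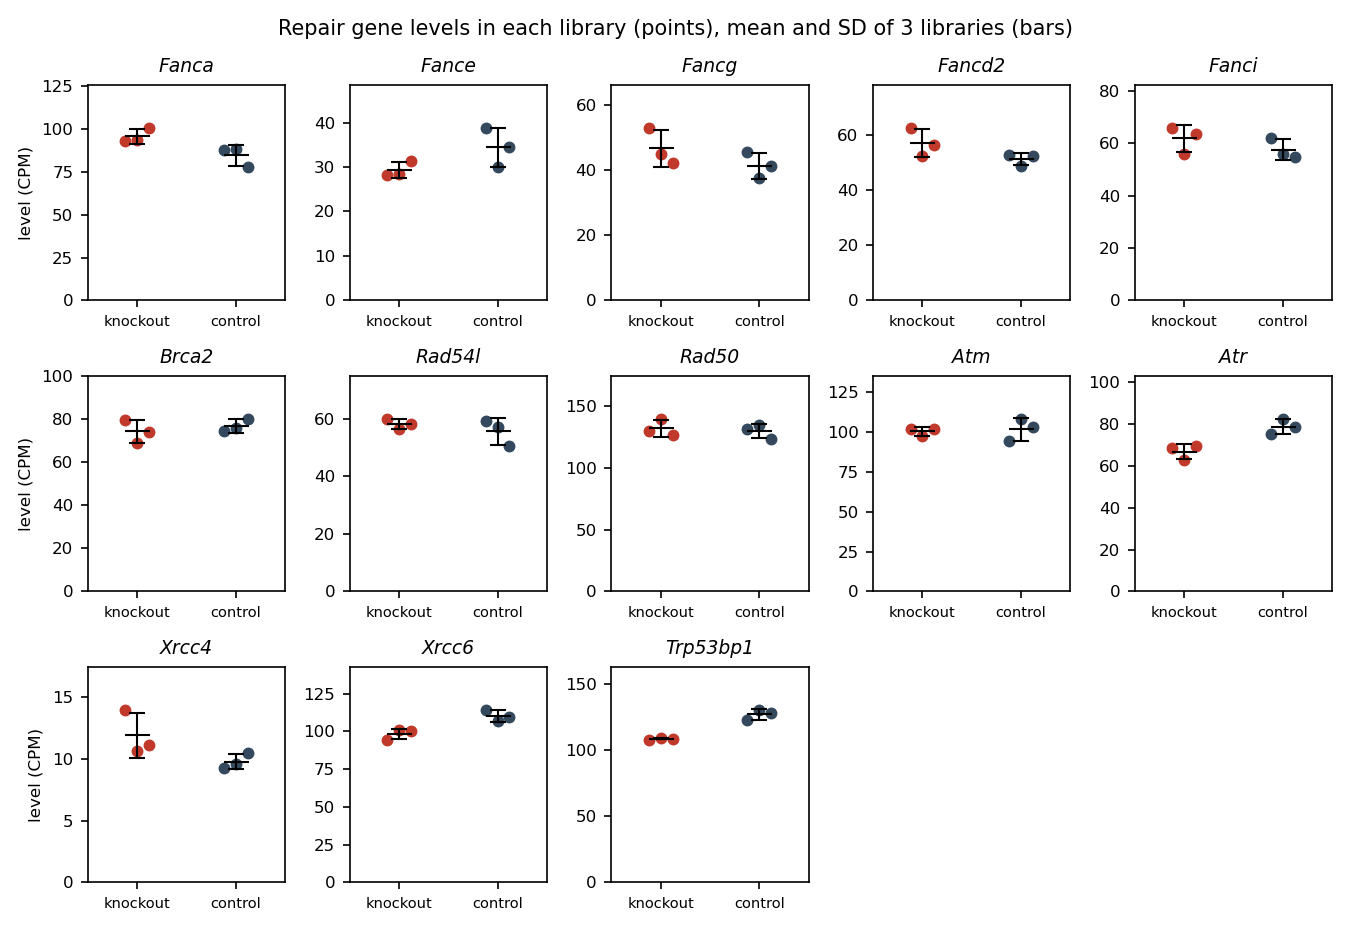
CPM (y axis, from 0) in each knockout (red) and control (dark) library for 13 repair genes, with the mean and SD of 3 libraries as bars. Knockout and control points do not overlap for Trp53bp1, Atr, Xrcc6, Fanca and Xrcc4, and overlap for the other 8 genes.

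The remaining end joining genes did not pass, and the Ku pair leaned in opposite directions. Xrcc6 (Ku70) had 94.5, 100.7 and 99.9 CPM in knockout libraries, against 114, 107 and 109 CPM in control libraries. The groups did not overlap, and the level was 89.3% of control (log2 fold change −0.16, SE 0.06, unadjusted p = 0.0247, adjusted p = 0.132). Xrcc5 (Ku80) averaged 37.8 ± 4.38 CPM in knockout and 34.9 ± 2.75 CPM in control libraries (0.12, SE 0.11, adjusted p = 0.541). Whether the subunits differed from each other in response was not tested. Xrcc4, the scaffold of ligase IV, had 14.005, 10.6 and 11.2 CPM in knockout libraries, against 9.28, 9.59 and 10.5 CPM in control libraries. Its groups did not overlap, with knockout library 1 the highest (0.29, SE 0.15, adjusted p = 0.283). Lig4, the ligase itself, had 5.97, 6.49 and 7.46 CPM in knockout libraries, against 3.26, 6.72 and 6.34 CPM in control libraries. Control library 1 held 53 reads of it, and without that library the log2 fold change was 0.02 instead of 0.28. Prkdc, the DNA-dependent kinase, averaged 71.8 ± 2.71 CPM in knockout and 69.3 ± 4.29 CPM in control libraries (0.05).

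The pathway was also read from 85 tested genes that are not among the 32, drawn from 90 symbols of 4 lists. Of these 3 were higher and 0 lower in knockout libraries (3.53%, against 8.42% of all tested genes), with a median log2 fold change of 0.00. Dna2, a nuclease and helicase that resects broken ends and trims flaps at forks, had 124, 124 and 134 CPM in knockout libraries, against 90.8, 104 and 99.1 CPM in control libraries. It was higher in 3 of 3 knockout libraries than in any control library, at 130.0% of control (log2 fold change 0.38, SE 0.07, adjusted p = 0.0185). The call was kept in 10 of 15 other fits, and was lost without knockout library 2 (adjusted p = 0.0645), without knockout library 3 (0.0571), without control library 1 (0.0633), with the sex term (0.299) and among Xist-positive libraries (0.244). Over all 15 fits the adjusted p ran from 0.000502 to 0.299.

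Rad51c, a member of complexes that promote strand exchange and help to resolve its products, was low but higher in knockout libraries. It had 11.6, 9.24 and 8.99 CPM in knockout libraries, against 6.64, 6.25 and 5.44 CPM in control libraries, with no overlap. The log2 fold change was 0.70 (SE 0.17, adjusted p = 0.0413). The adjusted p was 0.129, 0.102 and 0.0726 without knockout library 1, 2 or 3, 0.0873, 0.0823 and 0.0850 without control library 1, 2 or 3, 0.381 with the sex term and 0.298 among Xist-positive libraries (range over 15 fits 0.00918 to 0.381). Polm, the gap-filling polymerase mu of end joining, had 14.9, 11.7 and 16.5 CPM in knockout libraries, against 7.87, 9.91 and 8.47 CPM in control libraries. These groups did not overlap either (0.70, SE 0.17, adjusted p = 0.0416). Its adjusted p was 0.116, 0.0573 and 0.115 without knockout library 1, 2 or 3, 0.127 and 0.0803 without control library 1 or 3, 0.0646 by limma-voom, 0.443 with the sex term and 0.392 among Xist-positive libraries (range over 15 fits 0.00555 to 0.443).

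By list, 2 of 32 further recombination genes (Dna2 and Rad51c) and 1 of 14 further end joining genes (Polm) were higher, and 0 of 14 further Fanconi genes and 0 of 25 further signalling genes were called by edgeR, nor by DESeq2 or limma-voom. Among the further Fanconi genes 11 of 14 had positive fold changes, with a median of 0.09 on the log2 scale. The smallest p there was that of Dclre1b, a nuclease also known as Apollo, at 63.6 ± 5.72 CPM in knockout and 54.3 ± 3.26 CPM in control libraries (0.23, SE 0.08, adjusted p = 0.131). The signalling genes had a median of −0.05 with 10 of 25 positive. At an unadjusted p under 0.05, 2 of the 14 further Fanconi genes were higher and 1 of the 25 signalling genes was lower, both smaller shares than the 24.9% of all tested genes.

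**Figure D4:**
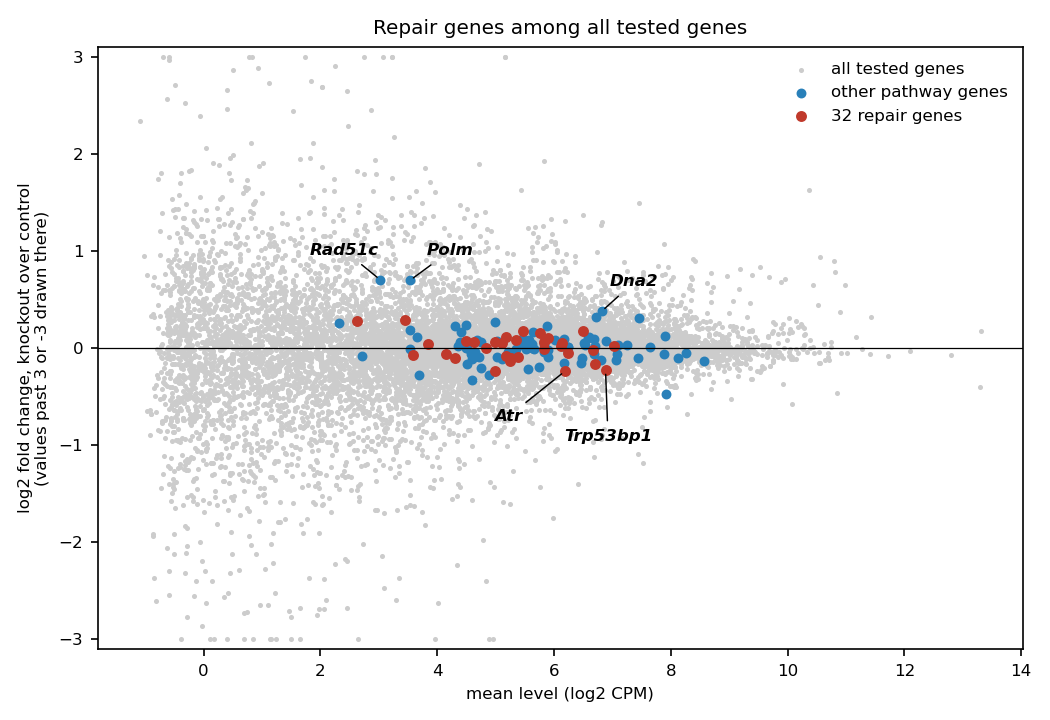
Log2 fold change, knockout over control (y axis), against mean level in log2 CPM (x axis) for all 13679 tested genes (grey), 85 other pathway genes (blue) and the 32 repair genes (red). The repair genes lie between −0.24 and 0.29, and Rad51c, Polm and Dna2 lie above them.

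Many repair genes are made mainly in S and G2 phase, so genes of these phases were read beside them. Of 40 S phase genes 1 was higher (Rrm2) and 3 lower (Cdca7 and Ung among them), with a median log2 fold change of −0.02. The other 36 did not pass, where 8.42% of all tested genes were called in either direction. At an unadjusted edgeR p under 0.05, 2 of the 40 were higher and 8 lower, against 24.9% of all tested genes in either direction. Taken in either direction, both shares were near those of all tested genes. At the unadjusted threshold 1673 of all 13679 tested genes were higher and 1732 lower, a more even split than that of the S phase list. The S phase list summed to 6315 to 6806 CPM in knockout and 6541 to 6914 CPM in control libraries. Cdca7, a chromatin protein of cycling cells, had 185, 179.6 and 177 CPM in knockout libraries, against 242, 246 and 230.2 CPM in control libraries (−0.41, SE 0.06, adjusted p = 0.0068). Rrm2, the small subunit of ribonucleotide reductase, had 278, 246 and 249 CPM in knockout libraries, against 198, 204 and 159 CPM in control libraries (0.46, SE 0.10, adjusted p = 0.0307). The call of Rrm2 was lost without knockout library 1, 2 or 3 (0.0967, 0.0820 and 0.0639), without control library 1 (0.0683), with the sex term (0.403) and among Xist-positive libraries (0.227), and that of Cdca7 with the sex term (0.0945) and among Xist-positive libraries (0.0828). Of 49 G2 and M phase genes edgeR called 0 in either direction, and 2 were higher at an unadjusted edgeR p under 0.05. DESeq2 and limma-voom called 0 as well. The median log2 fold change of this list was 0.05, with 38 genes positive and 11 negative. Its sums were 9075 to 10424 CPM in knockout and 8807 to 9807 CPM in control libraries. The smallest p there was that of Kif2c, a microtubule depolymerase (0.22, adjusted p = 0.136). Both sums overlapped between the groups, as did that of the 32 repair genes.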

How the data were processed

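RNA of LSK cells was read in 6 libraries, 3 per genotype label. The authors deposited raw read counts per gene symbol, with no normalization. The submitters' processing notes name STAR and mm10. The aligner's version, the counter, the annotation and any use of strand were not given in the sources used here. Without strand, reads shared by overlapping genes cannot be told apart. Of the 32 genes 13 overlap exons of another gene in the table, each on the other strand. The members and gene lists were chosen with earlier results of these data known.

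From the deposited counts, filterByExpr kept genes by a minimum count of 10 and a minimum total of 15, libraries were scaled by TMM, and edgeR 4.0.16 in R 4.3.3 ran a quasi-likelihood F test on genotype alone. Adjusted p-values are Benjamini-Hochberg values over 13679 genes, called under 0.05. CPM are TMM-scaled, apart from Xist, which is over the library total. The SE is the fold change divided by the root of F, and 95% intervals use its t quantile. Intervals cover the spread between libraries and not the unequal sexes of the groups. Positions, exon lengths and overlaps are from GENCODE M21 (GRCm38, the mm10 assembly), and promoters from RefSeq GRCm38.p6. In simulated counts of this comparison, 78% of genes changed 2-fold were recovered and 0.0906% of 13249 unchanged genes were called, with 13445 genes run. The simulated counts held no difference of sex between the groups, and changes smaller than 2-fold were not simulated. No pair of libraries agreed within sampling noise (chi-square at least 8.29 per degree of freedom).

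Described with every library's value are genes past the threshold, the 8 smallest p and the most abundant gene of each of 7 roles. From the other lists, genes past the threshold and the smallest p of each list are named. Fancb, Lig4 and Rad52 were added after their values were seen. Alternatives were DESeq2 size factors or upper-quartile scaling in edgeR, no filter or a floor of 1 CPM in 3 or more libraries, the test of DESeq2 1.42.0 and that of limma-voom (limma 3.58.1), a replicate block, each library left out, and a sex term read from Xist (over 100 CPM). A fit to the Xist-positive libraries was added after the data were seen. Some genes of other repair routes are not reported here.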

Additional observations from a re-analysis of the deposited data

How the results depend on the processing

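Each value was recomputed under 15 alternatives. No repair gene was called higher in any of them. Trp53bp1 was the 1 gene called lower with DESeq2 size factors in edgeR, the stricter filter, DESeq2, limma-voom and the replicate block; 2 were called with upper-quartile scaling (Atr was added), and 0 with no filter, with the sex term, among Xist-positive libraries and in each fit that left out 1 library (0 to 0). The median log2 fold change of the 32 genes was 0.024, with −0.019 with the sex term, −0.022 among Xist-positive libraries and −0.014 to 0.063 when 1 library was left out. The sign was kept by 20 of 32 genes under every alternative and changed at least once in 12, none of which was called. Over all genes, 526 higher and 626 lower became 833 higher with DESeq2, 7 and 36 with the sex term, 10 and 29 among Xist-positive libraries, and 119 to 440 higher and 171 to 544 lower with 1 library left out. The replicate block gave 1169 and 1003. Same-numbered libraries correlated at 0.293, −0.005 and 0.339 in their deviations from the group means. Knockout libraries 1 and 3 correlated best with the control library of their own number, and knockout library 2 did not. The labels name no pairing, and whether same-numbered libraries belong together was not tested. The sex term and the Xist-positive fit set the knockout libraries against 1 control library, and the cause of the lost calls was not tested. Lig4, with as few as 53 reads in a library, is the gene that depth limits most.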

Other observations

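Other repair routes were read from lists written after the values of some of their genes were seen, and they carry no test as lists. In base excision repair 1 of 16 genes passed the edgeR test (6.25%, against 8.42% of all tested genes). DESeq2 called 2 lower (Apex1 and Ung) and limma-voom called 0. The median of the list was 0.04 on the log2 scale, and 10 genes were above zero. At an unadjusted p under 0.05, 1 gene was higher (Apex2) and 2 were lower (Ung and Apex1), where 24.9% of all tested genes passed in either direction. Ung, the glycosylase that removes uracil from DNA, had 40.8, 44.5 and 39.8 CPM in knockout libraries, against 49.2, 54.9 and 50.7 CPM in control libraries (−0.31, SE 0.08, edgeR adjusted p = 0.0472). It passed in 5 of 15 other fits, and its adjusted p without a library was 0.142, 0.0900 and 0.128 for knockout libraries 1 to 3 and 0.0857, 0.130 and 0.0729 for control libraries 1 to 3. The call of Ung was also lost with the sex term, at a log2 fold change of −0.395. Apex1, the endonuclease that cuts at the sites glycosylases leave, had −0.23 with an adjusted p of 0.0542. Its relative Apex2 had 11.8, 11.8 and 10.6 CPM in knockout libraries, against 8.67, 9.45 and 8.33 CPM in control libraries, with no overlap (0.37, SE 0.13, adjusted p = 0.127). Apex2 lies on the X chromosome, and with the sex term its log2 fold change was 0.27. Its exons overlap 311 bases of Alas2 and 123 bases of Pfkfb1 on the other strand. Alas2 is an erythroblast gene that DESeq2 and limma-voom called higher. The part of these overlaps and of sex in the Apex2 values was not tested. In nucleotide excision repair 0 of 12 genes passed the edgeR test, 1 was called lower by DESeq2 (Ercc2) and 0 by limma-voom. Lower at an unadjusted edgeR p under 0.05 were 2 of the 12, against 24.9% of all tested genes in either direction. They were Ercc2 (−0.31, adjusted p = 0.0520) and Xpc (−0.32, adjusted p = 0.159). The median of that list was −0.03.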
